A study of Mus musculus with 10 samples.

Results

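The transcripts of 48 DNA replication and repair genes were followed in mouse oocytes held at metaphase II of meiosis (MII). The genes were taken as a named list, from the origin recognition complex through the replicative helicase, polymerases and clamp to repair proteins and checkpoint kinases. They are 48 of the 18194 genes that had at least 1 probe set assigned to that gene alone, and each gene was read from the brightest such probe set over all 10 arrays. The samples were the spindle-chromosome complex (SCC, 3 arrays), which is the meiotic spindle with its chromosomes lifted out of the oocyte by microsurgery, the cytoplast (4 arrays), which is the oocyte left after that removal, and the intact MII oocyte (3 arrays), which holds both. All 3 groups came from female B6D2F1 mice that received equine chorionic gonadotropin and, 48 h later, 5 IU of human chorionic gonadotropin, with oocytes collected after another 16 h and stripped of cumulus cells. The sample details used here list no mutation or drug treatment for any group, and the labels do not say how many oocytes or animals each sample pooled. The design asks whether maternal transcripts are enriched at the spindle.

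A chromosome is made ready for replication when the origin recognition complex (Orc1 to Orc6), Cdc6 and Cdt1 load the Mcm2 to Mcm7 helicase onto DNA, a step called licensing. Geminin (Gmnn) binds Cdt1 and blocks this loading. Cdc45 and the GINS complex then turn the loaded helicase on, and polymerases, the clamp Pcna, its RFC loader and the single-strand binding protein RPA copy the strands. An MII oocyte is between its chromosome divisions and does not replicate DNA. It stores transcripts and proteins that the embryo uses for its first S phases, when its own transcription is only starting, and repair and checkpoint proteins guard the chromosomes through meiosis and after fertilisation.

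Many replication genes are known targets of the E2F family of transcription factors. RefSeq promoter windows of the GRCm38.p6 build, reaching from 250 bases before to 50 bases after a start site, were found for 39 of the 48 genes. The genes without one were Gins1, Gins2, Gins4, Gmnn, Mcm4, Nbn, Pole, Rad50 and Rfc2. The E2F-type words TTTCCCGC and TTTGGCGC were searched on both strands. A TTTGGCGC word can share its last 4 letters with its own reverse complement. A word was present in 14 of the 39 genes (35.9%), against 486 of the 27025 genes with a window (1.8%). These 14 were Orc3, Cdc6, Cdt1, Mcm3, Mcm5, Mcm6, Mcm7, Gins3, Rfc3, Pola1, Pold1, Brca2, Msh6 and Xrcc6. The windows of 3 of them are printed because the results below turn on these genes: Gins3 (chr8:95633309-95633608, plus strand), Cdt1 (chr8:122567765-122568064, plus strand) and Mcm5 (chr8:75109259-75109558, plus strand). Capitals mark the matched word, which reads as its reverse complement in Gins3 and Mcm5.
Gins3: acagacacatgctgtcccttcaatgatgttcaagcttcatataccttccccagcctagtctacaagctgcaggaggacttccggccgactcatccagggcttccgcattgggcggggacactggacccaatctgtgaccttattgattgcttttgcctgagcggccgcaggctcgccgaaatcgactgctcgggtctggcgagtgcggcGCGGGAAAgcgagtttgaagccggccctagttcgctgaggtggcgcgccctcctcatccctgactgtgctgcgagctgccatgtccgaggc
Cdt1: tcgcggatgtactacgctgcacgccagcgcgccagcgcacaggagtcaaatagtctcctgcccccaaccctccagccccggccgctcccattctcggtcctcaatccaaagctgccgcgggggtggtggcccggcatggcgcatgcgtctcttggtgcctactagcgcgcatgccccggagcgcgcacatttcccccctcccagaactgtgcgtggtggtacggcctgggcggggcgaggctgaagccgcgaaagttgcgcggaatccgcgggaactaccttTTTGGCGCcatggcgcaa
Mcm5: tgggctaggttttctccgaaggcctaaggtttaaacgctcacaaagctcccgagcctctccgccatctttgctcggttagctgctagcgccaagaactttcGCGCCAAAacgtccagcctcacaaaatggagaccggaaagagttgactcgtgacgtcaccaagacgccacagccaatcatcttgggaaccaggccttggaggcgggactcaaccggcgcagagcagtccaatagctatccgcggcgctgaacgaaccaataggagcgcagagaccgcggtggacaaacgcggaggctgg
The word began 41 bases before the start site in Gins3, 149 bases before it in Mcm5 and 32 bases after it in Cdt1. The SCC minus cytoplast log2 difference had a median of 0.08 over the 14 genes with a word and 0.19 over the 21 tested genes with a window and no word. Orc3, Mcm3, Rfc3, Pold1 and Xrcc6 of the first set were below the background level defined below on every array. Of the second set, Rfc4, Lig1 and Atm were. The difference between the 2 medians was not tested. A match is a description of letters and shows no binding.

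Intensities are given on the deposited linear scale in arbitrary units, so levels are compared between samples for 1 gene and not between genes. Because a fixed amount of labelled RNA went onto each array, a value is a share of that sample's RNA, and more of a transcript cannot be told apart from less of the rest. The median intensity of an array was 15.6 to 16.6, and pairs of arrays correlated at 0.980 to 0.995. At the bright end the deposited arrays were less alike. The 95th percentile of intensity was 618 to 788 on SCC arrays, 521 to 626 on cytoplast arrays and 563 to 705 on those of the MII oocyte (exact permutation p = 0.114 for the SCC against the cytoplast). The background was taken as the 95th percentile of 31 genes of other tissues on each array, an intensity of 93.8 to 126.9. By it, 16 of 16 oocyte markers (among them Zp3, Gdf9 and Mos) were above background on all 10 arrays, and their summed intensity was 70520 to 95430 on SCC arrays, 56360 to 92620 on cytoplast arrays and 57160 to 90360 on those of the MII oocyte. Of 21 cumulus and granulosa markers, 18 were above background on no array, with sums of 862.5 to 1081, 915.2 to 1018 and 847 to 1071, and the defining genes Has2, Ptx3 and Fshr were among those 18. The other markers of that list were Col4a1, above background on 10 arrays, Nr5a2 on 9 and Kitl on 6. Kitl, the ligand of the Kit receptor, averaged 158.0 ± 41.1 (SD, n = 3) in the SCC, 96.1 ± 26.1 (SD, n = 4) in the cytoplast and 95.9 ± 33.5 (SD, n = 3) in the MII oocyte (SCC minus cytoplast log2 0.73, limma adjusted p = 0.156). Ptgs2, Tnfaip6 and Inha, all below background, were at their highest on SCC replicate 3 (24.2, 15.8 and 32.7). Of the 13 markers of that list that were tested, 4 had a positive SCC minus cytoplast difference. Their median log2 difference was -0.10, and 0 passed the threshold. The part of these markers in the differences below was not tested. The log2 gap between the 3′ and 5′ probe sets of Actb, which grows as RNA or its copies shorten, was 3.27 to 3.65 on SCC arrays and 3.66 to 5.29 on cytoplast arrays (exact two-sided permutation p = 0.0571, the smallest that 3 against 4 arrays allow), and 3.33 to 4.42 on those of the MII oocyte. The same gap of Gapdh was 2.32 to 3.23, 2.57 to 3.92 and 3.17 to 3.36 in these groups (exact permutation p = 0.457 for the SCC against the cytoplast). The part of these gaps in the differences below was not tested. The titles number the samples as biological replicates but give no animal or pool, so the p-values rest on the spread of these samples, which may be technical. Precision is limited by how few arrays there are.

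Transcripts of 27 of the 48 genes were above background on all 10 arrays. These were Orc1, Orc2, Orc4, Orc5, Orc6, Cdc6, Cdt1, Gmnn, Mcm2, Mcm4, Mcm6, Mcm7, Cdc45, Gins3, Mcm10, Pcna, Rfc1, Rfc5, Pola1, Rpa1, Rpa3, Fen1, Brca1, Brca2, Rad50, Msh6 and Chek1. Another 6 were above it on some arrays: Mcm5 on 7, Gins1 and Gins4 on 6, Gins2 on 5, Atr on 4 and Parp1 on 3. The other 15 were above it on none. Of these, Prim1, Pole, Rpa2, Mre11a and Xrcc5 (intensities of 7.26 to 16.4) also failed the filter for testing, which asked for 3 or more arrays with a value over that array's median. The remaining 10, Orc3, Mcm3, Rfc2, Rfc3, Rfc4, Pold1, Lig1, Nbn, Xrcc6 and Atm, had intensities of 10.75 to 71.9 and were tested, which left 43 genes in the tests. A low probe set does not show that a transcript was missing.

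**Figure D1:**
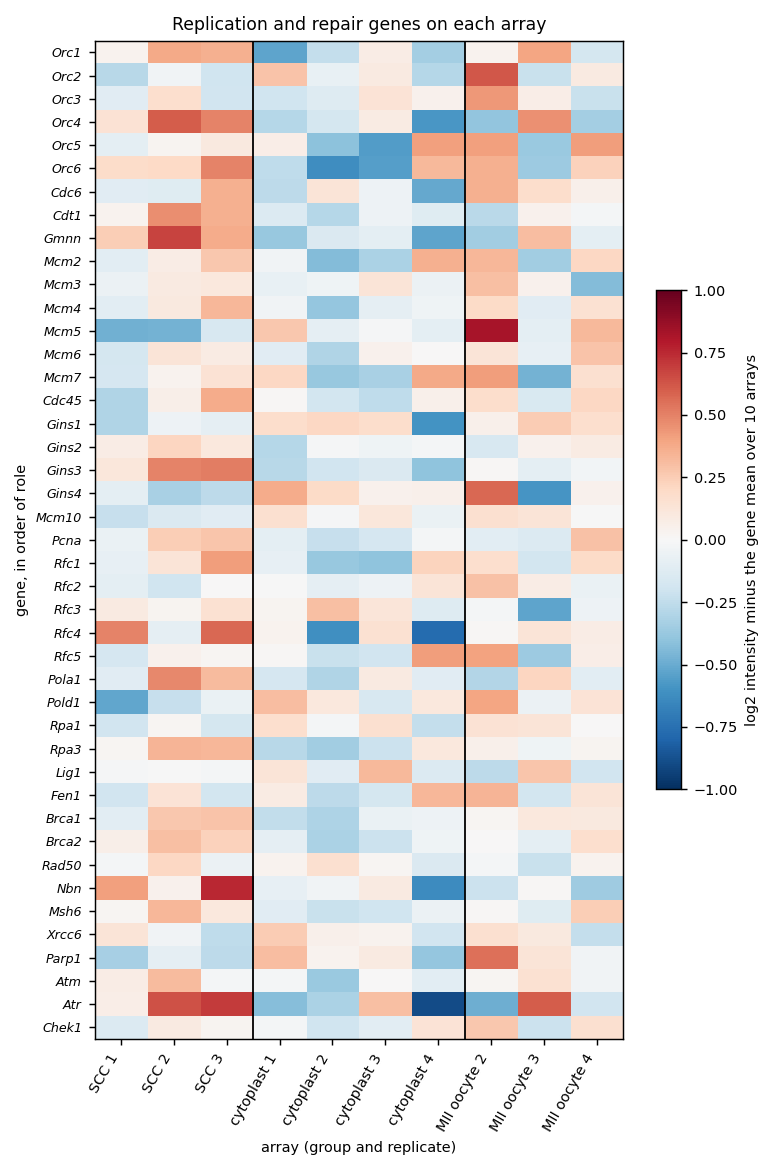
Each row is 1 of the 43 tested genes, in order of role, and each column 1 array. Colour gives the log2 intensity minus that gene's mean over the 10 arrays, red above and blue below it, with black lines between the groups. SCC replicates 2 and 3 are redder than SCC replicate 1 for Orc4, Cdt1, Gmnn, Gins3 and Atr, and Mcm5 is bluest in SCC replicates 1 and 2.

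The SCC was set against the cytoplast to see which of these transcripts were at a higher relative level with the spindle. Transcripts of geminin and of the GINS subunit Gins3 rose in the SCC, by 1.65-fold and 1.55-fold. They were 2 of the 43 tested genes (4.65%), and no gene fell. Over all 12710 genes tested, 8.03% were higher and 0.275% lower by the same limma test (adjusted p under 0.05 over 23737 probe sets), so the share among the replication and repair genes was not above the background share. Before adjustment, p was under 0.05 for 13 genes on the higher side (30.2%, against 18.4% of all genes) and for 1, Pold1, on the lower side (2.33%, against 3.89%). Over the 23737 probe sets it was under 0.05 for 4798. Among the listed genes with such a p, Pold1, Nbn and Rfc4 were below background on every array, and Atr was above it on 4. The log2 differences ran from -0.39 (Gins4) to 0.80 (Atr), and the 95% interval lay within a log2 difference of -1 to 1 for 37 of the 43.

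In 7 genes every SCC array lay above every cytoplast array: Orc4, Cdt1, Gmnn, Gins2, Gins3, Brca2 and Msh6 (16.3%, against 15.5% of all genes). In 3 genes all SCC arrays were under all cytoplast arrays: Mcm5, Gins4 and Mcm10 (6.98%, against 5.86% of all genes). Both shares were near those of all genes. The difference was positive in 29 of the 43 (67.4%, against 54.0% of all genes), with a median of 0.14 on the log2 scale against 0.02 over all genes.

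**Figure D2:**
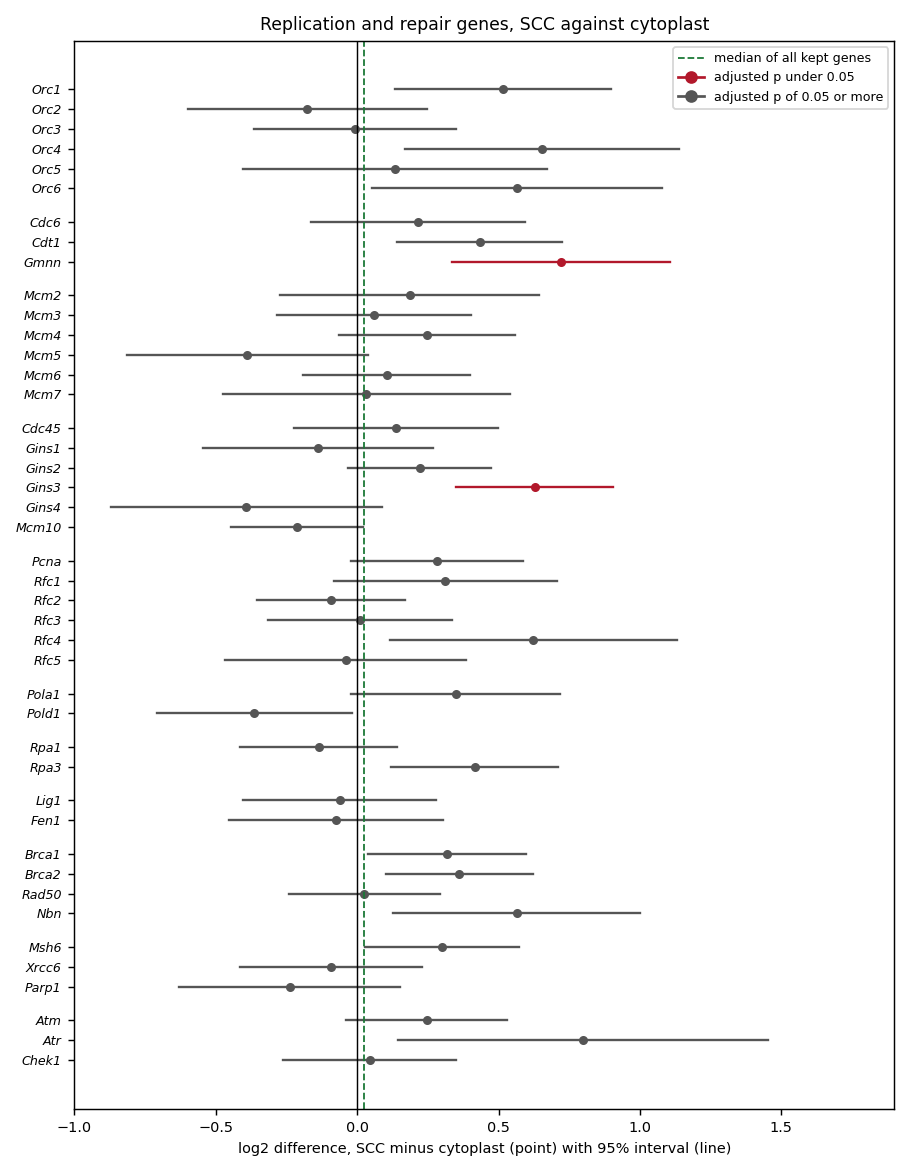
Points give the log2 difference, SCC minus cytoplast, for the 43 tested genes in order of role, with lines for the 95% interval from limma (3 SCC and 4 cytoplast arrays). Gmnn and Gins3, in red, are the genes with an adjusted p under 0.05, and the dashed line is the median of all genes, 0.02.

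Of the licensing factors, geminin passed, and Cdt1 and Cdc6 did not. Gmnn, the inhibitor of Cdt1, had intensities of 4514, 6089 and 4922 on SCC replicates 1 to 3, of 2923, 3449, 3550.0 and 2635 on cytoplast replicates 1 to 4, and of 2988, 4723 and 3550.0 on MII oocyte replicates 2 to 4. The SCC and cytoplast arrays did not overlap, and MII oocyte replicate 3 reached into the SCC range. The SCC mean was 5175 ± 817 (SD, n = 3) and the cytoplast mean 3139 ± 434 (SD, n = 4), a log2 difference of 0.72 (SE 0.18, 95% interval 0.33 to 1.11, limma adjusted p = 0.0322). The call was lost in 5 of the 10 fits that left out 1 array, with an adjusted p of 0.16 without SCC replicate 2, 0.112 without SCC replicate 3, and 0.0956, 0.0642 and 0.0605 without cytoplast replicates 1, 2 and 4. It was also lost after cyclic loess (log2 0.40, adjusted p = 0.397) and after quantile normalization (log2 0.47, adjusted p = 0.327), which rescale the arrays to each other.

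Cdt1, which brings the helicase to the origin and is the protein geminin holds, had intensities of 4686, 6312 and 5858 on the SCC arrays, of 4159, 3759, 4414 and 4212 on the cytoplast arrays, and of 3793, 4730.5 and 4521 on the MII oocyte arrays. Every SCC array was above every cytoplast array, with SCC replicate 1 the closest to cytoplast replicate 3. The log2 difference was 0.43 (SE 0.13, 95% interval 0.14 to 0.73) and did not pass (limma adjusted p = 0.0778). Leaving out SCC replicate 1 brought it past the threshold (log2 0.56, adjusted p = 0.0309), while it was 0.11 after cyclic loess (adjusted p = 0.745) and 0.18 after quantile normalization (0.571). A dimmer probe set of Cdt1 gave 0.71 (adjusted p = 0.0847). Cdc6, the ATPase that works with them, had SCC intensities of 146.8, 145.4 and 202.7 within the range of the cytoplast (110.9 to 173.2) apart from SCC replicate 3 (log2 0.21, adjusted p = 0.562).

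**Figure D3:**
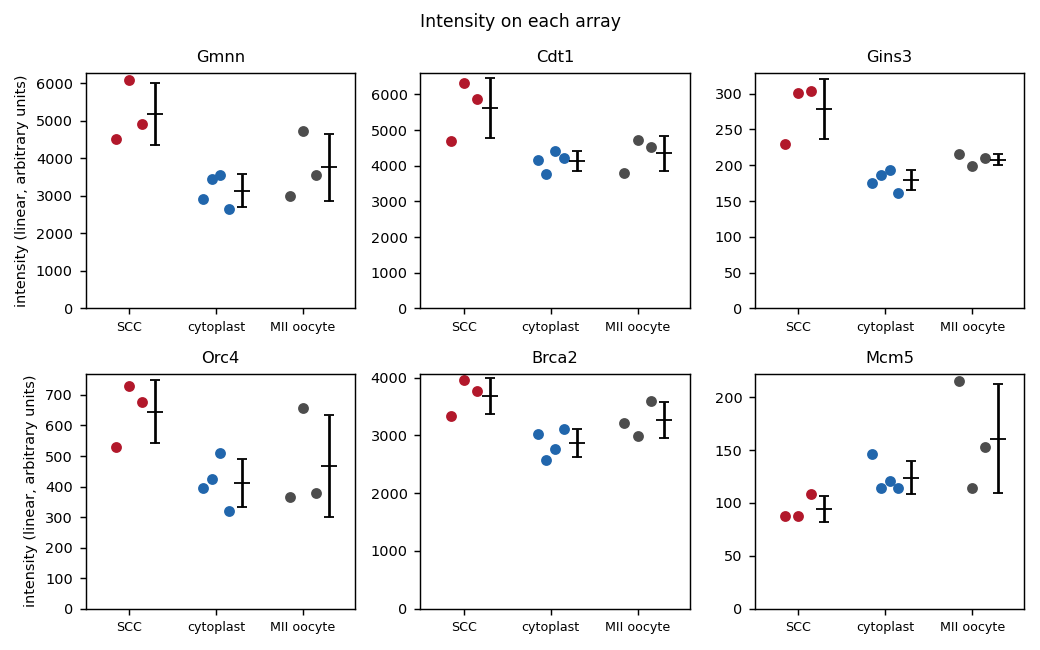
Each panel gives the linear intensity of 1 gene on each array, with the group mean and SD as bars beside the points (3 SCC, 4 cytoplast and 3 MII oocyte arrays), on axes that start at 0. The SCC points lie above all cytoplast points for Gmnn, Cdt1, Gins3, Orc4 and Brca2 and below them for Mcm5.

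The origin recognition complex, which marks the sites where replication can start, had a median log2 difference of 0.33 over its 6 subunits, with 4 positive and none past the threshold. Orc4 was at 529.6, 728.2 and 676.2 in the SCC, at 394.0, 424.2, 508.5 and 319.8 in the cytoplast, and at 365.6, 658.3 and 378.1 in the MII oocyte. The SCC arrays stood above the cytoplast arrays, and MII oocyte replicate 3 stood with the SCC. The difference was 0.65 (SE 0.22, limma adjusted p = 0.108). Without MII oocyte replicate 3, an array outside this comparison, the difference stayed at 0.65 and passed (limma adjusted p = 0.0293). In that fit the calls over all 23737 probe sets also went up, from 1599 to 2044 higher and from 65 to 191 lower. Orc1, the subunit that leaves and rejoins the complex with the cell cycle, was at 174.6, 222.0 and 218.2 in the SCC, at 118.1, 144.6, 179.7 and 134.4 in the cytoplast, and at 174.9, 224.0 and 150.4 in the MII oocyte. SCC replicate 1 fell below cytoplast replicate 3, so the groups overlapped (log2 0.52, adjusted p = 0.109). Orc6 gave 0.57 (adjusted p = 0.194), which passed without cytoplast replicate 4 (0.77, adjusted p = 0.0395). After cyclic loess and quantile normalization the differences were 0.29 and 0.28 for Orc6 (adjusted p = 0.395 and 0.371), and 0.41 and 0.32 for Orc4 (0.42 and 0.533). As deposited, Orc2 and Orc5 gave -0.18 and 0.13. Orc3 was below background on every array.

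The Mcm2 to Mcm7 ring, the motor of the replicative helicase, showed no call on its brightest probe sets, with a median of 0.08 over its 6 genes. The names of all 6 end in _x_at or _s_at, so they can match related transcripts. Dimmer probe sets without such names gave 0.37 for Mcm2 (limma adjusted p = 0.398), 0.63 for Mcm4 (0.012) and 0.19 for Mcm6 (0.459). These 3 were above background on all 10 arrays, while those of Mcm3, Mcm5 and Mcm7 were below it on every array. Mcm2 was at 2179, 2456 and 2812 in the SCC, at 2277, 1727, 1882 and 2997 in the cytoplast, and at 2941, 1839.5 and 2699.5 in the MII oocyte. Mcm7 was at 3135, 3617 and 3884 in the SCC, at 4068, 2715, 2812 and 4584.5 in the cytoplast, and at 4695, 2539 and 3934 in the MII oocyte. In both genes the cytoplast arrays spread wider than the SCC arrays and enclosed them (log2 0.19 and 0.03, limma adjusted p = 0.701 and 0.964). Mcm4 was at 3634, 4179.8 and 4923 in the SCC, at 3811, 2992, 3675 and 3799 in the cytoplast, and at 4457, 3617 and 4337 in the MII oocyte. Mcm6 was at 1223, 1512 and 1466 in the SCC, at 1279.7, 1121, 1426 and 1384 in the cytoplast, and at 1515, 1309 and 1683 in the MII oocyte. Their groups overlapped (log2 0.25 and 0.10, adjusted p = 0.381 and 0.745). Mcm3 was below background throughout, at 37.8, 41.8 and 42.3 in the SCC, at 37.3, 38.1, 42.9 and 37.6 in the cytoplast, and at 48.3, 40.5 and 29.1 in the MII oocyte.

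Mcm5 alone of the 6 ring genes had a negative difference as deposited, and after cyclic loess Mcm2, Mcm4, Mcm6 and Mcm7 were negative too. Mcm5 was at 87.4, 87.8 and 108.9 in the SCC, at 146.6, 114.5, 120.8 and 113.8 in the cytoplast, and at 215.7, 113.9 and 152.9 in the MII oocyte. Every SCC array was below all others, and none of the 3 was above its background level, while all 4 cytoplast and all 3 MII oocyte arrays were. The difference from the cytoplast did not pass (log2 -0.39, 95% interval -0.81 to 0.04, limma adjusted p = 0.297).

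Among the factors that switch the helicase on, Gins3 rose and none of the other 5 genes passed. Gins3 was at 230.0, 301.2 and 304.2 in the SCC, at 175.5, 186.6, 193.2 and 161.0 in the cytoplast, and at 215.2, 199.1 and 209.6 in the MII oocyte. The lowest SCC array was above the highest array of both other groups. The means were 278.4 ± 42.0 (SD, n = 3) and 179.1 ± 14.1 (SD, n = 4), a log2 difference of 0.63 (SE 0.13, 95% interval 0.35 to 0.91, limma adjusted p = 0.0153). The adjusted p was 0.0876 and 0.089 without SCC replicates 2 and 3 and 0.0524 without cytoplast replicate 1, and it was 0.0782 after cyclic loess and 0.103 after quantile normalization. A second Gins3 probe set lay below background.

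The GINS complex has 4 subunits, and the tests of the other members gave different signs. Gins4 was at 97.7, 83.7 and 87.1 in the SCC, at 135.6, 119.6, 107.6 and 108.3 in the cytoplast, and at 155.7, 69.5 and 107.7 in the MII oocyte. Its SCC arrays were all below its cytoplast arrays (log2 -0.39, limma adjusted p = 0.36), and 1 of 3 SCC arrays was above background. Gins1 and Gins2 gave -0.14 and 0.22 (adjusted p = 0.755 and 0.322). Cdc45, the partner of GINS on the helicase, gave 0.14 (adjusted p = 0.722), and Mcm10, which helps the helicase to unwind, gave -0.21 with no overlap of the arrays (adjusted p = 0.302). The difference between Gins3 and the other subunits was not tested.

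No gene of the clamp, the polymerases, RPA or Okazaki fragment processing passed. Pcna, the sliding clamp, had a mean of 2279 ± 290 over the SCC and 1866 ± 115 over the cytoplast arrays (log2 0.28, limma adjusted p = 0.284). Of the RFC subunits that load it, Rfc1 gave 0.31 and Rfc5 -0.04 (adjusted p = 0.379 and 0.944), and Rfc2, Rfc3 and Rfc4 were below background on every array. Rfc4 was at 25.8, 17.2 and 27.2 in the SCC, at 18.7, 12.0, 20.4 and 10.75 in the cytoplast, and at 18.4, 20.0 and 19.3 in the MII oocyte, too dim to give a fold. Pola1, the catalytic subunit of the polymerase that starts each strand, gave 0.35 (adjusted p = 0.28). Pold1, of lagging-strand synthesis, had means of 36.8 and 47.2, both below background (adjusted p = 0.218).

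The RPA subunits, which coat single-stranded DNA as a trimer, went to opposite sides of 0 without passing. Rpa3 was at 558.9, 698.2 and 694.8 in the SCC and at 455.2, 432.9, 475.1 and 593.0 in the cytoplast, where cytoplast replicate 4 reached into the SCC range (log2 0.42, limma adjusted p = 0.0941). Without that array the difference was 0.51 (adjusted p = 0.0329), and it was 0.17 after cyclic loess (adjusted p = 0.409) and 0.11 after quantile normalization (0.638). Rpa1 gave -0.14 (adjusted p = 0.627). Fen1, the nuclease that trims Okazaki fragments, gave -0.07 (adjusted p = 0.872), and the ligase gene Lig1 was below background on every array.

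In the recombination group, Brca2, which acts in the repair of broken ends, was at 3336, 3952 and 3762 in the SCC, at 3019, 2579, 2764 and 3106 in the cytoplast, and at 3208, 2988 and 3599 in the MII oocyte. Its SCC and cytoplast arrays did not overlap, and the difference did not pass (log2 0.36, SE 0.12, limma adjusted p = 0.0992). Brca1, which acts before it at breaks, was at 715.0, 928.1 and 939.7 in the SCC, at 649.2, 621.3, 735.8 and 743.9 in the cytoplast, and at 780.5, 830.6 and 824.2 in the MII oocyte. SCC replicate 1 lay inside the cytoplast range (log2 0.32, adjusted p = 0.18). Rad50 of the break-sensing MRN complex gave 0.03 (adjusted p = 0.943). Msh6, which recognises mismatches, had no overlap of the arrays (1096 ± 125 against 886.5 ± 46.4, log2 0.30, adjusted p = 0.194). Parp1, the sensor of nicked DNA, gave -0.24 (adjusted p = 0.521) and was above background on no SCC array and 1 cytoplast array.

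The damage checkpoint kinases start with Atr, which senses stalled forks and activates Chek1, and Atm, which senses breaks. Atr was at 86.7, 128.3 and 134.4 in the SCC, at 61.7, 66.6, 102.0 and 44.5 in the cytoplast, and at 59.1, 126.0 and 72.5 in the MII oocyte. Its difference from the cytoplast was the largest among the 43 genes, and it did not pass (log2 0.80, SE 0.30, 95% interval 0.14 to 1.45, limma adjusted p = 0.15). SCC replicate 1 lay below cytoplast replicate 3, and 2 SCC arrays and 1 cytoplast array were above background. Atm was below background on every array.

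Chek1 gave different answers from its different probe sets. It had 5 tested probe sets, and the brightest, 1449708_s_at, had means of 9277 ± 729 (SCC), 9013 ± 905 (cytoplast) and 9877 ± 1660 (MII oocyte), with overlapping groups (log2 0.04 for SCC minus cytoplast, limma adjusted p = 0.911). The probe set 1439208_at was at 297.8, 425.6 and 478.1 in the SCC, at 137.9, 103.6, 159.2 and 168.7 in the cytoplast, and at 144.1, 207.4 and 216.8 in the MII oocyte. Its SCC arrays were above all arrays of both other groups. Against the cytoplast it was 2.81-fold higher (log2 1.49, SE 0.22, 95% interval 1.02 to 1.96, adjusted p = 0.00527), and it passed in all 20 settings in which it was refitted, including each of the 10 fits without 1 array, with log2 differences of 1.24 to 1.69 and adjusted p-values up to 0.0381. The other 3 gave 0.51 (1450677_at, adjusted p = 0.0759), 0.30 (1420032_at, adjusted p = 0.745) and 0.09 (1420031_at, below background).

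**Figure D4:**
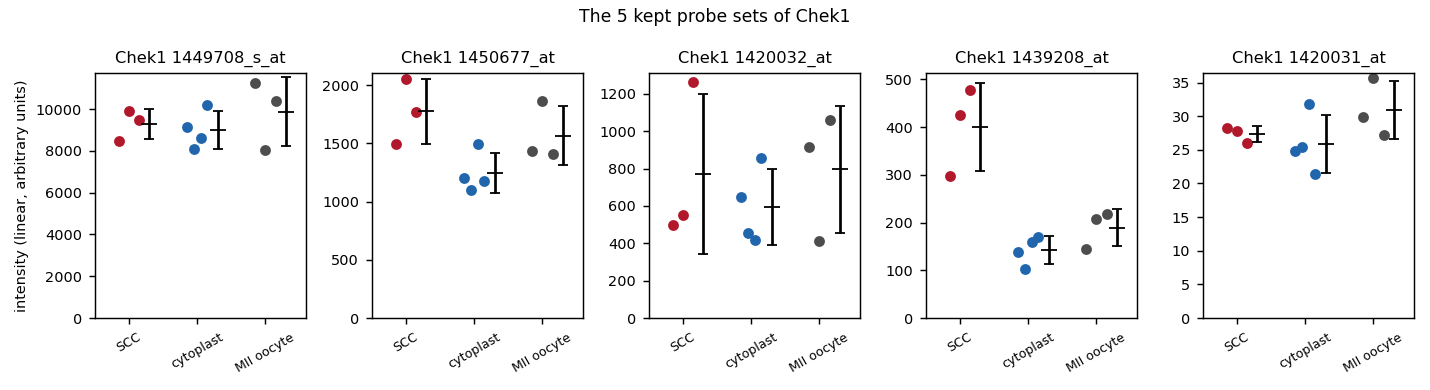
Each panel gives the linear intensity of 1 Chek1 probe set on each array, brightest on the left, with the group mean and SD as bars (3 SCC, 4 cytoplast and 3 MII oocyte arrays) and axes that start at 0. In 1439208_at the SCC arrays lie at 297.8 to 478.1 and all others at 216.8 or below, while in 1449708_s_at the groups overlap.

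The log2 gap between 1439208_at and the brightest Chek1 probe set, taken within each array, was -4.56 ± 0.26 (SD, n = 3) on SCC arrays and -6.00 ± 0.22 (SD, n = 4) on cytoplast arrays. The groups did not overlap. Of the 20 genes with 2 or more tested probe sets, 2 were compared in this way. Each pair set a probe set that had passed against a brightest one that had not. That choice favoured a gap between the groups, so no p-value is read from it. Mcm4 was the other gene. Its dimmer probe set 1416214_at was at 714.1, 893.7 and 863.9 in the SCC, at 527.0, 522.0, 562.9 and 507.8 in the cytoplast, and at 639.2, 744.9 and 638.2 in the MII oocyte. Against the cytoplast it was 1.55-fold higher (log2 0.63, SE 0.12, limma adjusted p = 0.012), with an adjusted p of 0.0715 and 0.0657 without SCC replicates 2 and 3, 0.153 after cyclic loess and 0.249 after quantile scaling. Within arrays, the gap to its brighter probe set was -2.36 on SCC arrays and -2.75 on cytoplast arrays. Both pairs were chosen after their values were seen. The transcript forms that each probe set reads were not looked up here. The brightest ones, 1449708_s_at of Chek1 and 1436708_x_at of Mcm4, have name endings of probe sets that can match related transcripts. The part of such matches in the gaps was not tested. Counting a gene by any of its probe sets, 4 of the 43 genes were higher (Gmnn, Gins3, Chek1 and Mcm4), or 9.3%, against 10.3% of all genes, and none was lower, against 0.456%.

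The differences moved with brightness and with the scaling of the arrays. Over the 23 genes with a mean log2 intensity above 8 the median SCC minus cytoplast difference was 0.25, against 0.28 over the 2833 genes that bright. Over the 20 dimmer ones it was 0.02, against -0.01 over 9877. The 16 oocyte markers, all bright, had a median of 0.34, with 15 positive and 1, Dppa3, past the threshold. After cyclic loess the median of the bright genes of the whole array went from 0.28 to 0.01, that of the 43 genes from 0.14 to -0.01, and neither Gmnn nor Gins3 passed. Over all probe sets, 1599 were higher and 65 lower as deposited, 505 and 121 after cyclic loess, and 418 and 154 after quantile normalization. After both scalings Mcm2, Mcm6, Mcm7, Orc5, Cdc45, Pcna, Rad50 and the brightest Chek1 probe set changed from a positive to a negative difference, and Mcm4 did after cyclic loess, none of them past the threshold.

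**Figure D5:**
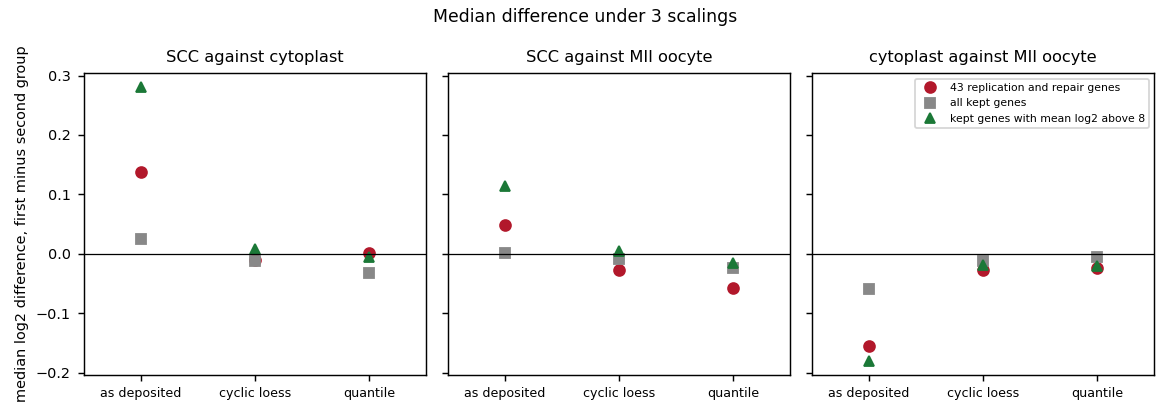
Each panel is 1 comparison, and points give the median log2 difference as deposited and after each of 2 rescalings, cyclic loess and quantile. In the SCC against the cytoplast, the 43 replication and repair genes (0.14) lie between all genes (0.02) and bright genes (0.28) as deposited, and all 3 medians lie near 0 after rescaling.

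The level of the hybridisation controls, which are spiked in after the RNA is labelled, differed between arrays within every group, at mean log2 values of 10.0 to 11.3 in the SCC, 9.91 to 11.2 in the cytoplast and 9.87 to 11.3 in the MII oocyte. In a limma fit with that level beside the groups, 6 genes rose with it: Orc5, Orc6, Mcm7, Mcm2, Rfc1 and Cdc45, with slopes of 0.31 to 0.48 log2 units per log2 unit of control and adjusted p-values of 0.0173 to 0.0373. They were 14.0% of the 43, against 10.1% of all genes, and none fell, against 1.38%. For Orc5, Mcm2 and Mcm7, cytoplast replicate 4, with the brightest controls of its group, gave the highest cytoplast value, and MII oocyte replicate 3, with the dimmest, gave the lowest MII oocyte value. With the control level in the fit, Orc4, Orc6, Rpa3 and Brca2 passed beside Gmnn and Gins3 in the SCC against the cytoplast (adjusted p = 0.0336, 0.016, 0.0417 and 0.0451 for these 4). That made 6 of the 43 (14.0%), while the share of all genes called higher went from 8.03% to 13.6%. This fit by gene was chosen after values were seen.

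Against the intact MII oocyte, which contains the spindle, no gene of the 43 passed in the SCC. Over all genes, 0.0472% were higher and 0% lower in limma. Before adjustment, p was under 0.05 for 8 of the 43 (4 higher and 4 lower) and for 2871 of the 23737 probe sets. The first count is of genes and the second of probe sets, and the share over all genes is given with the further lists below. These are the same SCC arrays as above, so the comparisons are not independent. The median difference was 0.05, against 0.0008 over all genes, and 24 of 43 were positive (55.8%, against 50.1%). The 95% interval lay within a log2 difference of -1 to 1 for 39.

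Mcm5, read from 1436808_x_at, had the smallest p of this comparison. Its other probe sets, 1415945_at (7.42 to 12.02) and 1459658_at (11.46 to 18.4), failed the filter for testing. On the tested probe set, none of the Mcm5 values on SCC arrays was above background, so the SCC level is only a bound. Its SCC arrays, 87.4 to 108.9, lay below the MII oocyte arrays, 113.9 to 215.7, and the log2 difference was -0.72 (SE 0.21, 95% interval -1.18 to -0.27, limma adjusted p = 0.183). Without MII oocyte replicate 3, its lowest array, the difference was -0.95 (adjusted p = 0.0278). In that fit 444 of the 23737 probe sets were higher and 253 lower, against 10 and 0 with all arrays. Gins3 gave 0.41 (SE 0.14, adjusted p = 0.239), with its SCC arrays above those of the MII oocyte. Nbn of the MRN complex was at 46.3, 36.0 and 58.8 in the SCC, at 32.9, 34.2, 37.2 and 22.6 in the cytoplast, and at 30.01, 35.3 and 27.3 in the MII oocyte, all below background. The arrays did not overlap for 3 genes on the higher side, Gins3, Rfc3 and Nbn (6.98%, against 9.14% of all genes), and for 5 on the lower side, Mcm5, Gins1, Mcm10, Pold1 and Parp1 (11.6%, against 5.27%). Of the genes on the lower side, only Mcm10 was above background on any SCC array. Rfc3, Nbn and Pold1 were below background on every array, so most of these SCC levels are only bounds. Gmnn and Cdt1 gave 0.48 and 0.37 (adjusted p = 0.328 and 0.324). The Chek1 probe set 1439208_at was 2.11-fold higher in the SCC than in the MII oocyte with no overlap of arrays (log2 1.07, SE 0.23, adjusted p = 0.108, not past the threshold).

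The cytoplast was set against the MII oocyte to see what removing the spindle did to the levels that remained. No gene of the 43 passed between these groups in limma, as over all genes (0% in either direction). Before adjustment, p was under 0.05 for 0 of the 43 and for 1054 of the 23737 probe sets, with the share over all genes again given below. All 43 intervals lay within a log2 difference of -1 to 1, and the differences ran from -0.37 to 0.28. The median was -0.16, against -0.06 over all genes and -0.18 over bright genes, and 7 of 43 were positive (16.3%, against 35.9%). After cyclic loess that median was -0.03.

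The smallest p-values here were those of Cdc6, Orc1 and Brca1, each with an adjusted p of 0.926. Cdc6 was at 132.3, 173.2, 152.9 and 110.9 in the cytoplast and at 202.3, 179.1 and 163.8 in the MII oocyte, with cytoplast replicate 2 inside the MII oocyte range (log2 -0.37, 95% interval -0.75 to 0.01). Orc1 gave -0.34 and Brca1 -0.24. The cytoplast arrays lay below those of the MII oocyte without overlap for Brca1 and Gins3 (4.65%, against 4.5% of all genes), and above them for none (against 1.68%). Rfc4 gave the lowest difference and Rfc3 the highest, both below background, Rfc3 at 19.5, 23.4, 20.7 and 17.5 on the cytoplast arrays, 18.9, 13.2 and 18.5 on those of the MII oocyte and 20.3, 19.4 and 21.2 on those of the SCC. The MII oocyte mean lay between those of the SCC and the cytoplast for 21 of 43 genes (48.8%, against 48.1% of all genes), above both for 17 and below both for 5.

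Genes that work with these factors were read from 3 further lists. Of 41 other replication genes, 33 were tested and 9 were higher in the SCC against the cytoplast (27.3%, against 8.03% of all genes), with a median log2 difference of 0.19. Of 99 other repair genes, 72 were tested and 6 were higher (8.33%), with a median of 0.08. Of 18 meiotic recombination genes, 10 were tested and 4 were higher (40.0%), with a median of 0.50. The median was 0.02 over all genes and 0.28 over those with a mean log2 intensity above 8. The share called higher among bright genes alone was not counted, so the shares of these lists stand beside all genes only. No gene of these lists was lower, and in limma none passed in the comparisons with the MII oocyte, where p before adjustment was under 0.05 for 28 of the 115 genes in the SCC (24.3%, against 13.3% of all genes) and 8 in the cytoplast (6.96%, against 4.68%). Of the 19 genes called higher, 15 lost the call under cyclic loess, and 16 did under quantile normalization. The other replication list then held 2 called genes under loess, Atad5 and Dut (6.06%, against 2.29% of all genes), and 1, Atad5, under quantile scaling (3.03%, against 1.9%). The repair list held 0 after both, and the meiotic list 2 (20.0%), Sycp1 and Tex12, after both.

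Both subunits of the kinase that fires licensed origins were higher. Cdc7 had an SCC mean of 541.2 ± 116 (SD, n = 3) and a cytoplast mean of 276.8 ± 36.8 (SD, n = 4) (1.94-fold, limma adjusted p = 0.0128), and its activator Dbf4 had 3273 ± 320 and 2100.0 ± 156 (1.56-fold, adjusted p = 0.00985). Neither passed after cyclic loess (adjusted p = 0.0755 for Cdc7 and 0.103 for Dbf4) or after quantile normalization (0.0888 and 0.102), nor without SCC replicate 2 (0.0669 and 0.061) or SCC replicate 3 (0.0748 and 0.0557). At the fork, Wdhd1, which ties polymerase alpha to the helicase, was 2.11-fold higher, Tipin, of the fork protection complex, 1.81-fold, and Pole2, a subunit of polymerase epsilon, 1.5-fold (adjusted p = 0.0275, 0.012 and 0.0282). Atad5, which takes Pcna off DNA, had means of 369.9 ± 63.9 and 164.6 ± 20.7 (2.24-fold, adjusted p = 0.00423). Rnaseh1, which removes RNA paired with DNA, was 2.20-fold higher, Dut, which keeps uracil out of DNA, 1.79-fold, and Rif1, a regulator of replication timing, 1.62-fold (adjusted p = 0.017, 0.00637 and 0.045).

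In repair, Hus1 of the checkpoint clamp was 2.03-fold higher in the SCC (1249 ± 210 against 614.4 ± 87.5, limma adjusted p = 0.012). Rev1 and Rev3l, of the polymerases that copy past lesions, were 2.16-fold and 1.72-fold higher, Swi5, of homologous recombination, 1.997-fold, Xrcc4, of end joining, 1.54-fold, and Ube2t, of the Fanconi pathway, 2.41-fold with overlapping arrays (adjusted p = 0.0194, 0.037, 0.0223, 0.0472 and 0.0414). Rev1 and Xrcc4 were above background on 1 of 4 cytoplast arrays. Of the meiotic genes, Sycp1, Tex12 and Sycp2, which build the synaptonemal complex that joins homologous chromosomes, were 2.20-fold, 2.38-fold and 2.48-fold higher (adjusted p = 0.00637, 0.00642 and 0.012), and Mei4, needed for meiotic breaks, 1.56-fold (adjusted p = 0.0436). Of these 19 genes, Atad5, Dut, Sycp1 and Tex12 passed in each fit without 1 array. With the mean of a gene's probe sets in place of the brightest, Ube2t, Rev3l and Rif1 lost the call, and the rest kept it. Their log2 differences were then 0.59, 0.36 and 0.63 (limma adjusted p = 0.086, 0.109 and 0.0537). The lists were chosen with earlier results of these data known, and the difference between them and the 43 genes was not tested.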

How the data were processed

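RNA from the SCC (replicates 1 to 3), the cytoplast (1 to 4) and the MII oocyte (2 to 4) was measured on 1-colour Affymetrix arrays, grouped by the sample titles. Per the labels' protocols, at most 50 ng of RNA was amplified in 2 rounds, and 10 µg of labelled cRNA were hybridised. The deposited values are linear intensity values of 45101 probe sets, which the authors made with RMA (background correction, normalization and summary of probes), per the submitters' processing notes. The RMA version and options were not given in the sources used here. Scanner files were not used here.

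Log2 was taken of each value. Of the probe sets, 64 were controls, 34945 had 1 gene in the platform annotation, 932 several and 9160 none, and 34741 matched a RefSeq gene. That annotation names no build, so only promoter windows carry coordinates. Probe sets were kept where 3 or more arrays exceeded their own median (23737), and a gene was read from its brightest single-gene probe set over all 10 arrays (12710 genes kept). Of the 43 tested genes, 11 were read from probe sets whose names end in _x_at or _s_at, which can match related transcripts. The test was limma 3.58.1 under R 4.3.3 (1 mean per group, all 10 arrays, default moderation), with Benjamini-Hochberg adjustment over the 23737 probe sets and a threshold of 0.05. The fitting code was tested on simulated data. Promoter words and figures were made with Python 3.11.15.

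The listed genes, the other lists and the tests were chosen with earlier results of these data known. Values on every array are given for genes past the threshold, for the 3 smallest p-values and the largest and smallest difference of each comparison, and for Mcm2 to Mcm7 and Cdt1; a few others were added after their values were seen. Alternatives were the scaling, the log offset, the filter, the moderation, array weights, hybridisation controls, the replicate number, the arrays in the fit, the probe set and leaving out each array. Residuals of the 8 pairs of arrays with the same replicate number correlated at 0.0214 on average (-0.304 to 0.614), so the numbers were not taken to pair the samples.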

Additional observations from a re-analysis of the deposited data

Results flagged for a closer look

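In 4 of the 43 tested genes, 1 of the 4 cytoplast arrays stood far from the other 3 by Dixon's ratio, the gap to the nearest array over the whole range on the log2 scale, which passed its 95% critical value for 4 arrays. For independent, normally distributed values, chance gives about 1 in 20 such groups. The share over all genes was not counted, so 4 of 43 is not read as a trait of these genes. Gins1 had a ratio of 0.955, with 76.2 on cytoplast replicate 4 against 129.9 to 133.1 on the others. Gins2 had 0.893, with 86.9 on cytoplast replicate 1 against 103.0 to 105.1. Mcm3 had 0.863, with 42.9 on cytoplast replicate 3 against 37.3 to 38.1, all below background. Mcm4 had 0.85, with 2992 on cytoplast replicate 2 against 3675 to 3811. Each gene had a different array apart, and none of the 4 passed between groups on its brightest probe set. SCC and MII oocyte groups hold 3 arrays each and were not examined in this way.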

How the results depend on the processing

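The number of listed genes higher in the SCC against the cytoplast, 2 as reported, was 0 after cyclic loess, 0 after quantile normalization, 9 with array weights, 6 with the hybridisation control covariate and 4 (Cdt1, Gmnn, Mcm4 and Chek1) with the mean of a gene's probe sets. Over all 12710 genes, the share called higher was 8.03% as reported, 2.29% after loess, 1.9% after quantile normalization, 14.9% with array weights and 13.6% with the covariate, and 1007 of 12713 genes with the mean of probe sets. Leaving out each array in turn gave 0 to 3, and the replicate number as a block gave 2 and changed no call among them. Listed genes lower in the SCC than in the MII oocyte were 0 as reported and 1 (Mcm5) with array weights, and 0 to 1 on leaving out each array. Over all 23737 probe sets, 0 were lower as reported, 85 with array weights and 253 without MII oocyte replicate 3. The median difference of the SCC from the cytoplast ran from 0.08 to 0.25 on leaving out each array, was 0.00 after quantile normalization, and was 0.21 on probe sets without _x_at or _s_at names, a setting chosen after values were seen. No listed gene was lower in the SCC against the cytoplast, or different between cytoplast and MII oocyte, in any setting run. For SCC minus cytoplast, signs turned for genes that did not pass. After cyclic loess the log2 differences were -0.083 for Cdc45, -0.30 for Chek1, -0.11 for Mcm2, -0.070 for Mcm4, -0.17 for Mcm6, -0.28 for Mcm7, 0.026 for Orc3, -0.13 for Orc5, -0.011 for Pcna and -0.17 for Rad50. After quantile normalization they were -0.15 for Cdc45, -0.11 for Chek1, -0.13 for Mcm2, -0.19 for Mcm6, -0.21 for Mcm7, 0.021 for Orc3, -0.15 for Orc5, -0.046 for Pcna and -0.22 for Rad50. With array weights they were 0.060 for Fen1, 0.093 for Orc3, -0.048 for Rfc3 and 0.055 for Rfc5, with the mean of probe sets -0.039 for Mcm7 and 0.061 for Orc3, and with the replicate block -0.013 for Mcm3 and 0.040 for Rfc5. Leaving out each array gave -0.11 to 0.066 for Orc3, -0.0096 to 0.31 for Orc5, -0.084 to 0.17 for Mcm7, -0.026 to 0.31 for Cdc45, -0.059 to 0.083 for Rfc3, -0.12 to 0.098 for Rfc5, -0.12 to 0.030 for Lig1, -0.18 to 0.039 for Fen1, -0.057 to 0.076 for Rad50, -0.18 to 0.0080 for Xrcc6 and -0.0069 to 0.11 for Chek1. The cause was not tested. The 15 genes below background on every array have only a bound, and the number of arrays limits the rest.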
